A study of Mus musculus with 15 samples.

Results

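The RAS-ERK feedback target genes examined here were 10 mouse genes that ERK signaling is known to switch on and most of which then restrain it, namely Dusp4, Dusp5, Dusp6, Spry1, Spry2, Spry4, Spred1, Etv1, Etv4 and Etv5. They were taken by gene symbol from the 46679 genes in the count and TPM tables, and all 10 were found. In this pathway, growth factor receptors load the small GTPase RAS with GTP, and RAS then starts the RAF, MEK and ERK kinase cascade, while RAS GTPase-activating proteins such as neurofibromin, the product of Nf1, end the signal. The dual-specificity phosphatases of the set remove phosphate from ERK, Dusp6 mainly in the cytoplasm and Dusp4 and Dusp5 in the nucleus. Sprouty and Spred proteins act at the membrane, upstream of ERK, on RAS and RAF activation. Etv1, Etv4 and Etv5 are the PEA3 group of ETS transcription factors and carry ERK output to other genes. Each gene's mRNA level is commonly read as a trace of pathway output, but mRNA alone does not measure ERK activity, and phosphorylated ERK was not analysed here.

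RNA was sequenced from the tumor tissue of C57BL/6 mice bearing 1 of 4 syngeneic glioblastoma (GBM) lines and from naïve brain of mice without a tumor, with 3 mice in each of the 5 groups. Implanted mice were 6 to 8 weeks old and were given 500000 cells of Mut3, or 100000 of any other line, in the right hemisphere. They were perfused with PBS when they reached the humane end-point. The lines differ in origin and genotype. CT2A and GL261 both arose from chemical carcinogenesis with methylcholanthrene, CT2A being wild type for p53 and GL261 carrying mutant p53. The 005 line carries active H-ras and AKT in a p53+/- setting, and Mut3 arose from inactivation of NF1 and p53. The implanted cells were engineered with a GFP-firefly luciferase vector. Each model is 1 cell line, so the 3 mice of a group replicate the graft and not the genotype, and line, cell dose and time to end-point cannot be told apart. The tissue was whole and unsorted, so tumor, stromal and brain cells contributed RNA, and fewer cells of a type and less RNA per cell cannot be told apart.

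Total counts ran from 3105119 to 5161132 in naïve brain and from 5380395 to 13130158 in tumors, and 3 counts corresponded to 0.214 to 0.811 CPM. CPM values are read counts on a common scale after TMM normalization of library sizes. Of the 46679 genes, 17481 passed the filter on low counts, among them 9 of the 10 feedback genes, Etv4 being too low. Replicate 3 of 005 stood apart from its group. Its summed neuron marker level over 8 genes was 3653 CPM, against 592 and 186 CPM in replicates 1 and 2 and 4035 to 6406 CPM in naïve brain, its 6 oligodendrocyte markers summed to 4590 CPM, and its 6 proliferation markers summed to 115 CPM, against 1003 and 1058 CPM in the other two. Calls of the feedback genes that rest on 005 were therefore also fitted without that replicate, and those values are given where a call or a count changed.

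**Figure D1:**
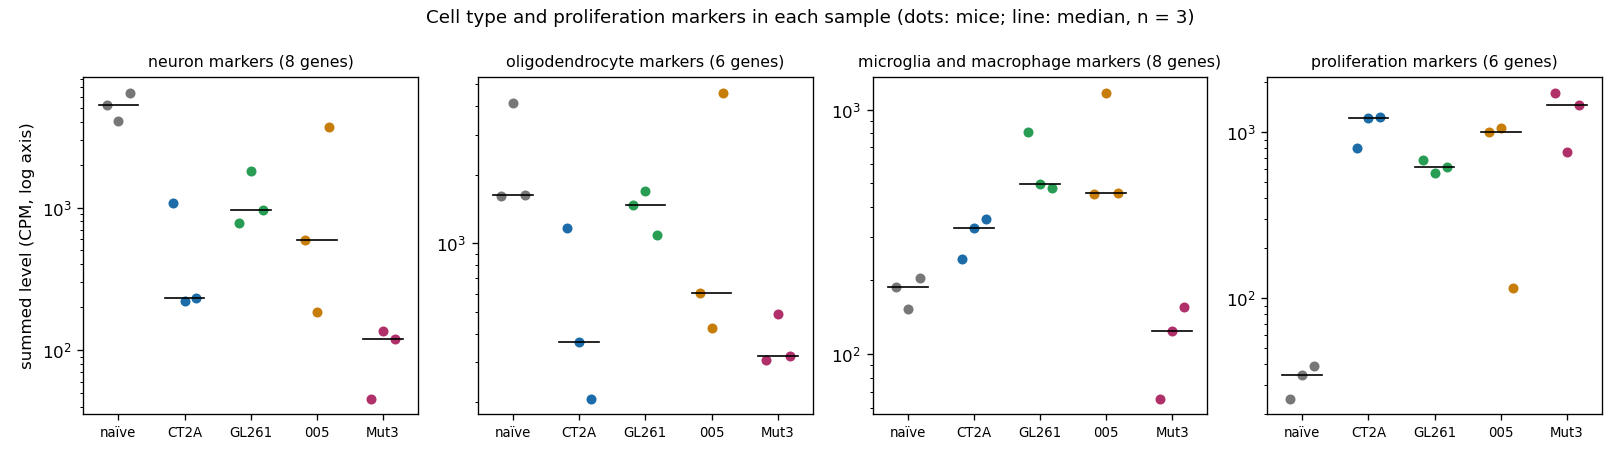
Summed CPM (log axis) of neuron, oligodendrocyte, microglia and macrophage, and proliferation marker genes in each of the 15 samples, with dots for mice and a line for the group median. The 005 sample with 3653 CPM of neuron markers and 115 CPM of proliferation markers is replicate 3, and the Mut3 samples have the lowest neuron marker sums, 45.4 to 137 CPM.

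Genes altered in the lines, Nf1 in Mut3 and Hras in 005, were first read as a check on the groups. A total gene count checks neither a point mutation nor a partial deletion, and host cells add wild type RNA. Nf1 was not low in Mut3, the line made by its inactivation, at 13.7 to 21.6 CPM, against 6.32 to 9.47 CPM in naïve brain, 12.1 to 15.7 CPM in CT2A, 21.3 to 32.1 CPM in GL261 and 19.2 to 48.8 CPM in 005. Hras was at 8.93 to 15.7 CPM in 005, against 2.90 to 10.5 CPM in the other tumors and 15.1 to 29.9 CPM in naïve brain.

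The promoters of Dusp6, Spry1 and Spry2 are shown because their RefSeq start was also the start of the gene in GENCODE M21. The sequences are the 250 bases before the annotated start, from RefSeq on GRCm38.p6, written 5′ to 3′ on the gene's strand, with the 4-letter ETS core GGAA, or TTCC where it lies on the other strand, in capitals. Dusp6 is at chr10:99262981-99263230 (+), Spry1 at chr3:37639697-37639946 (+) and Spry2 at chr14:105896820-105897069 (-).
Dusp6: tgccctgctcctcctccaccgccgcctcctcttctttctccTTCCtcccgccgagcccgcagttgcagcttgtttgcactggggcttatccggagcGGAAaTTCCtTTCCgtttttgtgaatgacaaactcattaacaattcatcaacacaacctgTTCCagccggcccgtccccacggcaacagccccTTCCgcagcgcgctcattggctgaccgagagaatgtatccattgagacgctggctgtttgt
Spry1: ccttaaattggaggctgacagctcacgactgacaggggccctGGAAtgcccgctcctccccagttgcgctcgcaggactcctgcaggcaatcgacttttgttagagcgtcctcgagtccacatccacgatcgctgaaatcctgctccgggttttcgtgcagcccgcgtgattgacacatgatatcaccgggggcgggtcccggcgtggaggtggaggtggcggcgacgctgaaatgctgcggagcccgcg
Spry2: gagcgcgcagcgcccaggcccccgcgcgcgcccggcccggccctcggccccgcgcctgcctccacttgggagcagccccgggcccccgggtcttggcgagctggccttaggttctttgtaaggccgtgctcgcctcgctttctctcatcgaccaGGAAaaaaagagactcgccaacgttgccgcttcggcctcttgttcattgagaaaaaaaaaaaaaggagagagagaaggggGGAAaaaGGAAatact
The core occurred 6 times in the Dusp6 stretch, 1 time in the Spry1 stretch and 3 times in the Spry2 stretch. Windows of 300 bases, from 250 before to 50 after a start, were read for 7 of the 10 genes. Dusp4, Spry4 and Etv4 were not among them. The core GGAA is common, being in 96% of 32851 such windows with a median of 3 per window, and 15.7% of windows held at least the 6 copies of the Dusp6 window. The window of Spry2 also held the longer ETS core CCGGAA, found in 14.9% of windows, and the window of Dusp5 held TGACGT, part of a cAMP response element, found in 7.51%. The AP-1 motif TGANTCA, found in 7.81% of all windows, was in none of the windows of these 7 genes. These matches describe letters on both strands and not bound sites.

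Compared per transcript length, the 10 genes spanned a wide range of levels. Over the 15 samples the median was 4.83 TPM for Dusp6, 4.01 TPM for Spry2, 3.85 TPM for Etv1 and 2.16 TPM for Spred1. Spry1 and Etv5 had medians of 1.45 and 1.40 TPM. Dusp5 was at 0.783, Spry4 at 0.239, Dusp4 at 0.0787 and Etv4 at 0.0642 TPM. The highest group mean was 24.9 times the lowest for Dusp4 (005 over GL261), 15.4 times for Spry1 (CT2A over naïve brain), 12.6 times for Dusp5 (005 over Mut3) and 9.57 times for Dusp6 (005 over Mut3), but 1.83 times for Etv5 and 1.69 times for Etv1.

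**Figure D2:**
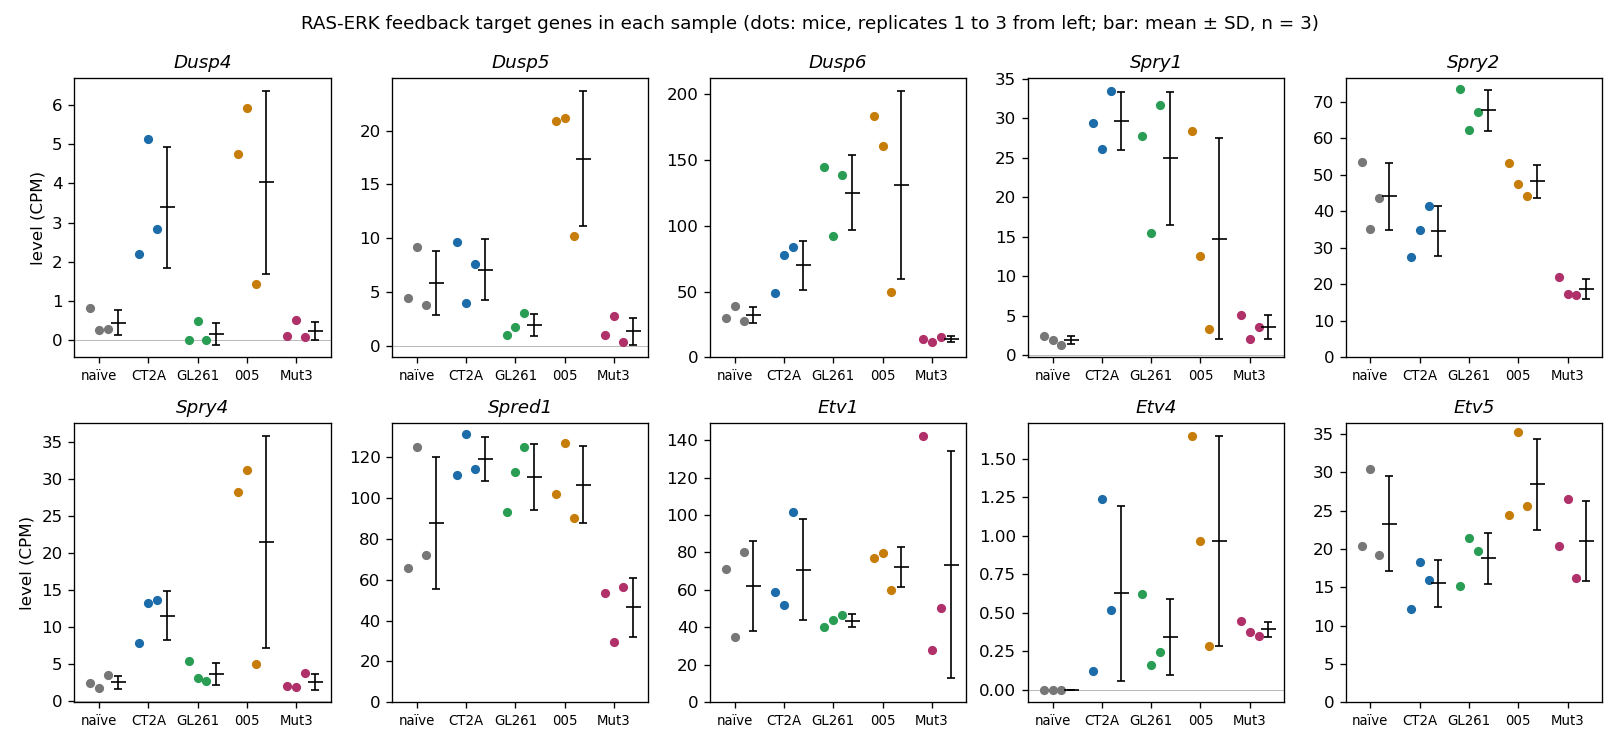
Level in CPM of the 10 feedback target genes in each mouse, by group, with the mean ± SD (n = 3) beside the dots and a linear axis for each gene. Dusp6, Spry2 and Spred1 are lowest in the 3 Mut3 samples, while Etv1 and Etv5 overlap between most groups, and replicate 3 of 005 is the lowest of its group for Dusp4, Dusp5, Dusp6, Spry1 and Spry4.

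Against naïve brain, the feedback genes that passed the test were all higher in CT2A, GL261 and 005 tumors and all lower in Mut3 tumors, but most of the 9 tested genes did not pass in any 1 tumor. Differential expression (DE) means an adjusted p under 0.05 together with a log2 fold change of 1 or more in size, by edgeR's quasi-likelihood test with Benjamini-Hochberg adjustment over all 17481 genes, as for every adjusted p given here. In CT2A, 4 of the 9 tested genes were higher than in naïve brain and 0 lower, where 39.2% of all genes were DE, 19% higher and 20.2% lower. In GL261, 2 were higher and 0 lower, where 22.4% of all genes were DE, 14.6% higher and 7.77% lower. In 005, 3 were higher and 0 lower, where 12.7% were DE, 11.6% higher and 1.05% lower. In Mut3, 0 were higher and 3 lower, where 37.8% were DE, 17.9% higher and 19.8% lower. The median log2 fold change over the 9 genes was 0.44 for CT2A, 0.33 for GL261, 1.57 for 005 and -0.91 for Mut3, beside -0.04, -0.08, 0.01 and 0.11 over all tested genes. These 4 comparisons share the naïve samples. Tumor and naïve samples did not overlap for 5 genes with CT2A, 4 with GL261, 5 with 005 and 4 with Mut3, beside 56.3%, 47.8%, 27.5% and 53.3% of all genes.

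Those counts moved with single libraries. The CT2A count was 2 without naïve replicate 3, CT2A replicate 2 or CT2A replicate 3, and the Mut3 count was 1 without naïve replicate 2 or Mut3 replicate 1. The 005 count was 5 without 005 replicate 3, where 35.7% of all genes were called instead of 12.7%, and 0 when only the 005 and naïve samples were fitted. The scale also matters for contrasts with naïve brain. Over the 4619 genes whose count exceeded 50 throughout, the mean log2 TPM per CPM, set to 0 in naïve brain, was -0.98 ± 0.18 (SD, n = 3) for CT2A and -0.81 ± 0.24 for GL261. For 005 it was -0.60 ± 0.42 and for Mut3 -0.82 ± 0.03. A difference from naïve brain on the TPM scale is thus lower by about that amount on average over these genes, though not equally for each gene, and the TPM levels are given below where this changes the picture.

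Among the tumors, Mut3 had the lower level in every called contrast that involved it. Over the 6 pairs of tumors, 21 of 54 tests of the 9 genes were DE (10.7% of the 104886 tests over all genes), and 17 of these 21 were lower levels in Mut3. Against Mut3, 6 genes were higher in CT2A, where 12.8% of all genes were DE and 6.61% higher. In GL261, 4 were higher (17.2% DE and 11.1% higher), and in 005, 7 were (19.8% DE and 14% higher). None of the 9 was lower than in Mut3 in any of the 3, where 6.15%, 6.1% and 5.76% of all genes were. Dusp6, Spry1 and Spred1 were higher than in Mut3 in all 3 other tumors. Of the remaining 4 calls, 1 was Dusp4, higher in CT2A than in GL261 (7.77% of all genes were DE, 4.15% higher and 3.62% lower). The other 3 were genes lower in GL261 than in 005, namely Dusp4, Dusp5 and Spry4 (2.62% of all genes were DE, 1.73% higher and 0.887% lower). CT2A and 005 differed in 0 of the 9 genes by edgeR and by DESeq2, where 4.11% of all genes were called by edgeR, 2.12% higher and 1.99% lower. At an unadjusted p under 0.05 Dusp6 and Etv5 were lower in CT2A. An F test over the 5 groups found 7 of the 9 genes different, the exceptions being Etv1 and Etv5, where 52.1% of all genes were. The samples of a pair of tumors did not overlap for 7 genes in CT2A against Mut3, 4 in GL261 against Mut3 and 6 in 005 against Mut3, beside 39.1%, 43% and 34.1% of all genes. They did not overlap for 6 genes in CT2A against GL261, 3 in CT2A against 005 and 5 in GL261 against 005, beside 36.4%, 25.7% and 18.2% of all genes.

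**Figure D3:**
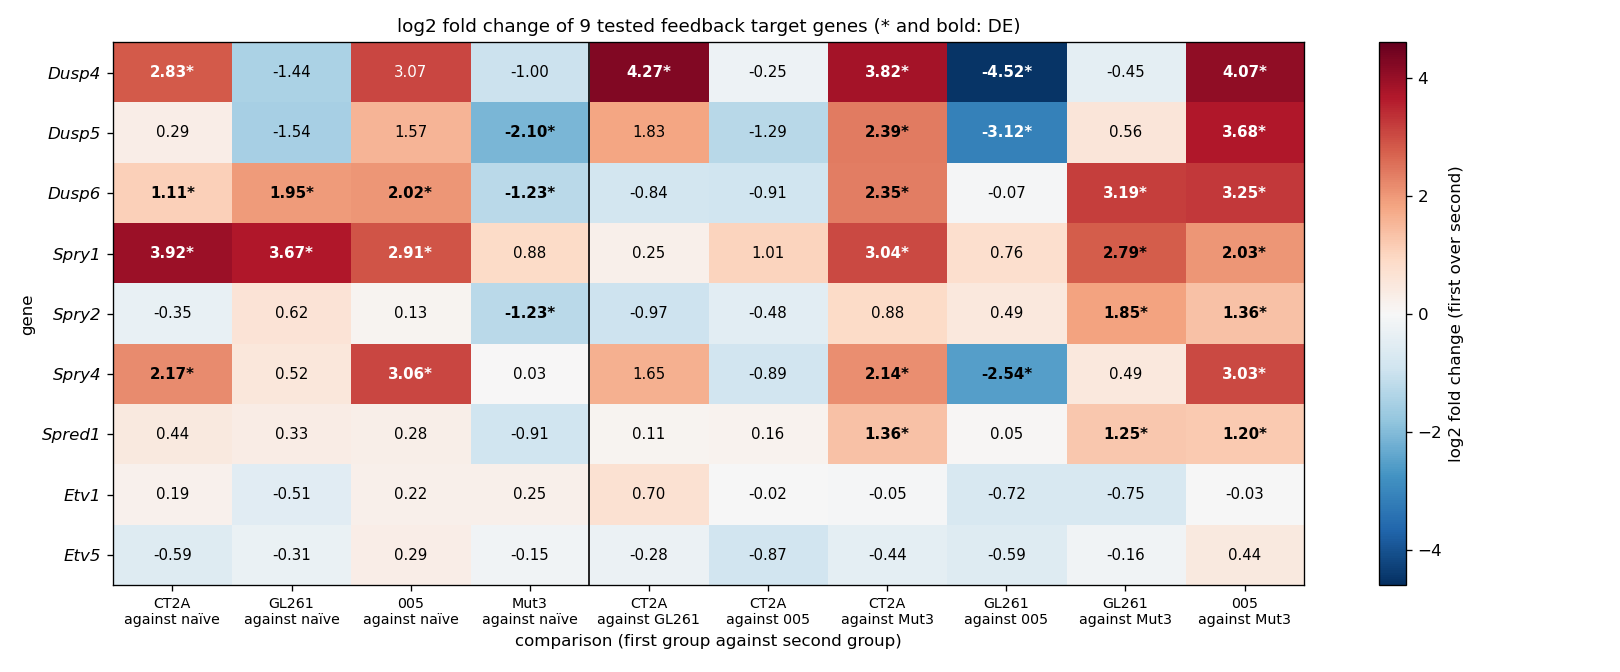
Log2 fold changes of the 9 tested feedback genes in the 10 comparisons, first group over second, with those called DE in bold and starred and a vertical line between the contrasts with naïve brain and those between tumors. The Mut3 against naïve column holds 3 starred negative values, and the 3 columns against Mut3 hold 17 starred values, all positive.

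Dusp6, the cytoplasmic ERK phosphatase, was DE in every tumor against naïve brain, upward in 3 and downward in Mut3. Its levels in replicates 1 to 3 were 30.0, 39.1 and 27.9 CPM in naïve brain. They were 48.6, 77.5 and 84.0 CPM in CT2A and 145, 92.3 and 139 CPM in GL261. In 005 they were 183, 160 and 50.0 CPM, and in Mut3 14.0, 11.5 and 15.7 CPM. All 3 Mut3 samples lay below all naïve samples, and all samples of the other 3 tumors lay above them. Against naïve brain, CT2A was higher by 1.11 ± 0.40 on the log2 scale (± standard error here and below, with adjusted p = 0.0386), GL261 by 1.95 ± 0.41 (adjusted p = 0.00502) and 005 by 2.02 ± 0.41 (adjusted p = 0.00591). The Mut3 difference was -1.23 ± 0.41 (adjusted p = 0.0266). Dusp6 was higher than in Mut3 by a log2 fold change of 2.35 ± 0.42 in CT2A, 3.19 ± 0.43 in GL261 and 3.25 ± 0.43 in 005, with adjusted p of 0.00228, 0.000524 and 0.000437. These 3 differences, and those of GL261 and 005 from naïve brain, held without any 1 of the 15 libraries.

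The CT2A and Mut3 differences of Dusp6 from naïve brain were less firm. The CT2A call was lost without naïve replicate 1 or 3, CT2A replicate 2 or 3 or GL261 replicate 3 (adjusted p from 0.0541 to 0.119), and the Mut3 call without naïve replicate 2 or any Mut3 replicate (0.0516 to 0.156). On the TPM scale Dusp6 was at 4.14 ± 1.85 in naïve brain and 4.24 ± 0.715 in CT2A (SD, n = 3), so there the CT2A rise was not seen, whereas GL261 was at 8.72 ± 2.30, 005 at 9.65 ± 3.53 and Mut3 at 0.948 ± 0.132 TPM. By limma on log2(TPM + 1), the GL261 call of Dusp6 over naïve brain was lost, as was the CT2A call, and the 005 call held. Without 005 replicate 3, Dusp6 was also lower in CT2A than in 005, by a log2 fold change of -1.26 (adjusted p = 0.0304), against -0.91 with it (adjusted p = 0.181).

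Dusp4 and Dusp5, the nuclear phosphatases, had higher group means in CT2A and 005 than in GL261 and Mut3. Dusp4 was at 2.20, 5.12 and 2.84 CPM in CT2A and at 4.74, 5.92 and 1.42 CPM in 005. It was at 0, 0.485 and 0 CPM in GL261, 0.112, 0.503 and 0.0880 CPM in Mut3 and 0.816, 0.249 and 0.270 CPM in naïve brain. Every CT2A and 005 sample lay above every sample of the other 3 groups. GL261 held 3 Dusp4 counts in all, against 73 in CT2A and 115 in 005, which gives CPM ratios of 20.9 (95% exact counting interval 6.89 to 104) and 23.0 (7.69 to 113) over GL261. These intervals cover counting error only. Both differences from GL261 were DE (adjusted p = 0.0248 for CT2A and 0.0356 for 005). Dusp4 also exceeded its Mut3 level by a log2 fold change of 3.82 ± 0.98 in CT2A (adjusted p = 0.0193) and 4.07 ± 0.99 in 005 (adjusted p = 0.0120), where Mut3 held 6 counts in all.

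Each of the Dusp4 calls depended on single libraries. The rise over naïve brain in CT2A, 2.83 ± 0.98 on the log2 scale (adjusted p = 0.0318), was lost without naïve replicate 2 or 3 or CT2A replicate 2 or 3, with adjusted p from 0.0589 to 0.0946. In 005 the same contrast was 3.07 ± 0.98 and did not pass (adjusted p = 0.052), but passed without 005 replicate 3 (adjusted p = 0.0126), without GL261 replicate 1 (0.0468) or 2 (0.0385), and by DESeq2 (0.0153). The CT2A against GL261 call was lost without CT2A replicate 2 or 3 or GL261 replicate 1 or 3 (up to 0.0937). The GL261 against 005 call was lost without CT2A replicate 2 or 3, GL261 replicate 1 or 3, or 005 replicate 1 or 2 (up to 0.161). The calls over Mut3 were lost without Mut3 replicate 1 or 3, and in CT2A also without CT2A replicate 2, with adjusted p up to 0.0810 in CT2A and 0.0534 in 005.

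Dusp5 was highest in 005, at 20.9, 21.1 and 10.2 CPM. It was at 9.65, 4.04 and 7.62 CPM in CT2A and 4.49, 9.22 and 3.79 CPM in naïve brain. GL261 had 1.04, 1.78 and 3.03 CPM and Mut3 1.01, 2.77 and 0.352 CPM. The 005 samples lay above all others, CT2A overlapped naïve brain, and GL261 overlapped Mut3. Dusp5 was higher in 005 than in Mut3 by a log2 fold change of 3.68 ± 0.68 (adjusted p = 0.00325), a call kept without any 1 library. It was lower in GL261 than in 005 by -3.12 ± 0.67 (adjusted p = 0.0214), lost without GL261 replicate 1 or 2 or 005 replicate 1 or 2 (up to 0.121). The CT2A difference from GL261, 1.83 ± 0.65, did not pass (adjusted p = 0.101), but passed by DESeq2 (adjusted p = 0.0352) and with only those 2 groups fitted (0.0443). It was higher in CT2A than in Mut3 by 2.39 ± 0.66 (adjusted p = 0.0275), lost without CT2A replicate 1 or 3 or Mut3 replicate 1 or 3 (up to 0.0914). In Mut3 it fell against naïve brain by 2.10 ± 0.67 on the log2 scale (adjusted p = 0.0219), lost without naïve replicate 2 or Mut3 replicate 1 or 3 (up to 0.135). In 005 the log2 fold change over naïve brain was 1.57 ± 0.63 and missed the threshold (adjusted p = 0.107), but passed without 005 replicate 3, at 1.78 (adjusted p = 0.0400).

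Spry1, an inhibitor of RAS pathway activation, showed the largest rise over naïve brain of the 9 genes in CT2A and in GL261. It was at 2.45, 1.99 and 1.35 CPM in naïve brain and at 29.4, 26.1 and 33.5 CPM in CT2A. GL261 had 27.8, 15.5 and 31.7 CPM, and 005 had 28.4, 12.6 and 3.35 CPM. Mut3 had 5.15, 2.01 and 3.61 CPM. Every sample of CT2A, GL261 and 005 lay above every naïve sample, Mut3 overlapped naïve brain, and replicate 3 of 005 lay within the Mut3 range. Against naïve brain, the log2 fold change of CT2A was 3.92 ± 0.67 (adjusted p = 0.000991), that of GL261 3.67 ± 0.66 (adjusted p = 0.00194) and that of 005 2.91 ± 0.65 (adjusted p = 0.00942). Each of these calls held without any 1 library. For Mut3 it was 0.88 ± 0.64 (adjusted p = 0.292). On the TPM scale, Spry1 was at 0.385 ± 0.150 in naïve brain (SD, n = 3), CT2A at 2.97 ± 0.494, GL261 at 2.85 ± 1.19 and 005 at 1.69 ± 1.21. By limma on log2(TPM + 1), the CT2A and GL261 calls over naïve brain held and the 005 call was lost. The 005 call was also lost with only the 005 and naïve samples fitted.

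Spry1 was higher than in Mut3 by a log2 fold change of 3.04 ± 0.61 in CT2A (adjusted p = 0.00484) and 2.79 ± 0.61 in GL261 (adjusted p = 0.00778), kept without any 1 library. In 005 the difference was 2.03 ± 0.59 (adjusted p = 0.0266) although the samples overlapped, and it was 2.45 (adjusted p = 0.00223) without 005 replicate 3. That call was lost without 005 replicate 1 or Mut3 replicate 2 or 3 (adjusted p from 0.0704 to 0.151), and its log2 fold change was at its lowest, 1.13, in 1 of those fits.

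Spry2, another Sprouty inhibitor, was the most abundant of its family per length and the one whose fall in Mut3 was firmest. It was at 53.7, 35.1 and 43.5 CPM in naïve brain and 21.9, 17.2 and 17.2 CPM in Mut3. CT2A had 27.6, 34.8 and 41.5 CPM, GL261 73.6, 62.4 and 67.3 CPM and 005 53.2, 47.4 and 44.2 CPM. Every Mut3 sample lay below every other sample, and every GL261 sample above. The log2 fold change of Mut3 against naïve brain was -1.23 ± 0.26 (adjusted p = 0.00217). Against Mut3, Spry2 was higher by 1.85 ± 0.26 in GL261 and 1.36 ± 0.26 in 005, with adjusted p of 0.000692 and 0.00350, and all 3 calls held without any 1 library. CT2A was above Mut3 by 0.88 ± 0.25 and below GL261 by a log2 fold change of -0.97 ± 0.25, with adjusted p of 0.0340 and 0.0306, both short of the fold threshold. The contrast of CT2A with naïve brain depended on the scale, at -0.35 ± 0.25 on CPM (adjusted p = 0.278) and -1.05 on log2(TPM + 1) (limma adjusted p = 0.00164), and those of GL261 and 005, 0.62 and 0.13 on CPM, were -0.15 and -0.38 there, with none of these called on CPM.

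Spry4, the third Sprouty gene, was raised in CT2A and 005. It was at 2.45, 1.74 and 3.52 CPM in naïve brain, 7.82, 13.2 and 13.7 CPM in CT2A and 28.2, 31.2 and 5.06 CPM in 005. GL261 had 5.39, 3.07 and 2.67 CPM and Mut3 2.13, 1.89 and 3.78 CPM. CT2A and 005 lay wholly above naïve brain and Mut3, while GL261 overlapped both, and replicate 3 of 005 lay inside the GL261 range. Against naïve brain, the CT2A difference was 2.17 ± 0.61 on the log2 scale (adjusted p = 0.0124) and the 005 difference 3.06 ± 0.62 (adjusted p = 0.00578). Against Mut3, 005 differed by 3.03 ± 0.60 (adjusted p = 0.00463), and these 3 calls held without any 1 library. On the TPM scale the CT2A level, 0.541 ± 0.0966, also stood above that of naïve brain, 0.238 ± 0.0345 (SD, n = 3). By limma on log2(TPM + 1), however, each of these 3 calls was lost. Spry4 was 2.14 ± 0.59 higher in CT2A than in Mut3 on the log2 scale (adjusted p = 0.0267), a call lost without CT2A replicate 2 or 3 or Mut3 replicate 1 or 2 (up to 0.0987). In GL261 it was below 005, by a log2 fold change of -2.54 ± 0.59 (adjusted p = 0.0336), lost without CT2A replicate 2, any GL261 replicate, 005 replicate 1 or 2 or Mut3 replicate 1 (up to 0.141), but with an adjusted p of 0.00112 without 005 replicate 3. The CT2A difference from GL261, 1.65 ± 0.58, did not pass (adjusted p = 0.0992). It passed by DESeq2 (adjusted p = 0.0495), with only the CT2A and GL261 samples fitted (0.0279) and without 005 replicate 3 (0.0149).

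Spred1, which acts with neurofibromin at the membrane to restrain RAS, was lower in Mut3 than in each other tumor. It was at 53.3, 29.7 and 56.3 CPM in Mut3. It was at 111, 131 and 114 CPM in CT2A, 92.9, 113 and 125 CPM in GL261 and 102, 127 and 90.4 CPM in 005. In naïve brain it was at 65.7, 125 and 72.2 CPM. Every Mut3 sample was below every other sample, and the other 4 groups overlapped. The log2 fold change over Mut3 was 1.36 ± 0.31 in CT2A (adjusted p = 0.0103), kept without any 1 library. It was 1.25 ± 0.31 in GL261 (adjusted p = 0.0152), lost without GL261 replicate 3 or Mut3 replicate 2 (up to 0.0659). It was 1.20 ± 0.31 in 005 (adjusted p = 0.0161), lost without Mut3 replicate 2 (0.0649). By limma on log2(TPM + 1), each of these 3 calls over Mut3 was lost. The 005 call was also lost with only the 005 and Mut3 samples fitted. Against naïve brain Mut3 differed by -0.91 ± 0.31, with an adjusted p of 0.0293 but short of the fold threshold. That contrast passed at -1.08 on log2(TPM + 1) and at -1.02 with library size scaling, and also without naïve replicate 1 or 3 or Mut3 replicate 3 (-1.08, -1.03 and -1.09).

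The tested PEA3 factors, Etv1 and Etv5, did not follow the phosphatases and Sprouty genes. Etv1 and Etv5 were DE in 0 of the 10 comparisons by edgeR and by DESeq2, and at an unadjusted edgeR p under 0.05 in 1 comparison for Etv5 and 0 for Etv1. Etv1 was at 71.2, 34.9 and 80.0 CPM in naïve brain and at 142, 27.7 and 50.5 CPM in Mut3, where the 3 mice spanned the whole range of the other groups. It was at 58.9, 52.2 and 102 CPM in CT2A, 40.2, 43.8 and 46.8 CPM in GL261 and 76.9, 79.4 and 59.7 CPM in 005. Its F test over the groups gave an adjusted p of 0.595. Etv5 ranged from 12.2 CPM in CT2A to 35.3 CPM in 005, with an adjusted p of 0.152. Its group means were 15.5 ± 3.09 CPM (SD, n = 3) in CT2A, 18.8 ± 3.29 in GL261, 21.0 ± 5.22 in Mut3, 23.3 ± 6.14 in naïve brain and 28.4 ± 5.92 in 005. The nearest contrast was CT2A below 005, whose samples did not overlap, by a log2 fold change of -0.87 ± 0.31 (edgeR adjusted p = 0.109).

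Etv4 was near the limit of these libraries. It had 0 counts in each of the 3 naïve samples, which allows up to 0.238 CPM over the group at 3 counts. It had 1, 8 and 4 counts in CT2A, 3, 1 and 2 in GL261, 16, 8 and 4 in 005 and 4, 3 and 4 in Mut3. Its pooled CPM was 2.44 times that naïve floor in CT2A, 1.31 times in GL261, 3.68 times in 005 and 1.64 times in Mut3. These ratios leave out the counting error of the tumors, so they are not lower bounds. Because naïve libraries were the shallowest, the zero and the tumor counts were read at different depths, and Etv4 entered no test.

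The feedback genes varied together to unequal degrees. Over the 15 samples, Pearson's r of log2 CPM was above 0 in 33 of the 36 pairs of the 9 tested genes, with a median of 0.365 and a range from -0.40 to 0.83. The pairs with the highest r were Dusp4 with Spry4 (0.83), Dusp6 with Spry2 (0.81) and Dusp6 with Spred1 (0.81). With group means removed, the median r was 0.20 and 25 of 36 pairs were above 0. Dusp6 then had an r of 0.84 with Spry1 and 0.82 with Spry4. The points share libraries and depth, and replicate 3 of 005, with its high neuron markers, was low in all 3 genes.

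The genes outside the set most like each member were found among 8339 protein-coding genes, by r over the 15 samples. For Spry4 they were Gadd45a (r = 0.96, and 0.90 with group means removed) and Cdk2ap2 (0.94 and 0.86). For Spry1 they were Apobec3 (0.95 and 0.80) and Piezo2 (0.95 and 0.69), and for Dusp6 Tab2 (0.94 and 0.67) and Tmsb10 (0.93 and 0.78). For Dusp4 they were Osbpl3 and Rrh (0.94 and 0.93), for Dusp5 Ust and Avpi1 (0.91 and 0.90), for Spry2 Rabepk and Ncoa7 (both 0.89), for Spred1 N4bp1 and Rps6ka4 (0.90 and 0.89) and for Etv5 Sidt2 and Plbd2 (0.89 and 0.87). By r over the 15 samples, Etv1 had the loosest likeness, to Paip2b (0.76, and 0.74 with group means removed) and Jagn1 (0.73 and 0.70). With group means removed, the r of Spry2 was lower, at 0.46 with Rabepk and 0.32 with Ncoa7.

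Other feedback genes of the same families gave a mixed picture. Of 13 listed, 11 were tested. Dusp2, a nuclear phosphatase, was higher than in naïve brain in CT2A, GL261 and 005, by log2 fold changes of 2.50, 2.23 and 3.24, and higher than in Mut3 in the same tumors, by 2.43, 2.17 and 3.18. The GL261 calls of Dusp2 held in 6 and 5 of the 15 leave-one-out fits, and the 005 calls in 14 and 15. Errfi1, an inhibitor of EGFR family receptors, was higher than in naïve brain in CT2A (2.01) and 005 (1.47). Spred2, a paralog of Spred1, fell in Mut3 by 1.49 on the log2 scale against naïve brain (adjusted p = 0.00162), and Dusp7, a cytoplasmic ERK phosphatase, fell by 1.80 (adjusted p = 0.0109). Dusp8, a JNK and p38 phosphatase of neurons, fell in CT2A by 3.86, in GL261 by 2.24 and in Mut3 by 4.02. Dusp10 was higher than in Mut3 in CT2A, GL261 and 005, by log2 fold changes of 1.51, 2.08 and 1.76. Dusp1 was lower in Mut3 than in naïve brain (-1.31, adjusted p = 0.0152). Il17rd and Lztr1, in contrast, were not low in Mut3. Il17rd was higher than in naïve brain in CT2A (2.33), 005 (2.73) and Mut3 (2.06), and lower in GL261 than in Mut3 (-2.74). Lztr1 was lower than in Mut3 in GL261 (-1.96) and 005 (-1.15). Over the 11 genes, 4 were higher and 0 lower in CT2A than in Mut3, 2 and 2 in GL261 and 4 and 1 in 005 (also without its replicate 3), beside 12.8%, 17.2% and 19.8% of all genes DE, with medians of 0.32, 0.74 and 1.32 beside 0.02, 0.04 and 0.10 over all genes.

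Immediate early and other ERK-responsive genes were higher than in Mut3 for many of the 15 tested. In CT2A 6 were higher and 1 lower, in GL261 7 and 1, and in 005 10 and 1, where 6.61%, 11.1% and 14% of all genes were higher and 6.15%, 6.1% and 5.76% lower. Without 005 replicate 3 the 005 counts were 8 and 1. The median log2 fold change was 1.18, 1.14 and 1.66, beside 0.02, 0.04 and 0.10 over all genes. Fosl1, an AP-1 subunit stabilized by ERK, was at 57.4 to 90.4 CPM in CT2A, 4.69 to 8.37 CPM in GL261, 2.63 to 40.8 CPM in 005, 0.528 to 1.76 CPM in Mut3 and 0 to 1.02 CPM in naïve brain. Its CT2A and 005 differences from Mut3, 6.18 ± 0.91 and 4.65 ± 0.86, held without any 1 library, while the GL261 difference, 2.63 (adjusted p = 0.0390), held in 7 of 15. Plaur, the urokinase receptor, was higher than in Mut3 by 3.49 in CT2A, 2.24 in GL261 and 3.46 in 005, and Ccnd1, cyclin D1, by 2.05, 1.90 and 2.58, the GL261 call of Ccnd1 being kept in 5 of 15 fits. Junb, another AP-1 subunit, was higher by 2.06, 1.43 and 1.66. The list did not move as 1 block. Myc was the lower gene in all 3, at 86.9 to 160 CPM in Mut3 against 12.4 to 58.2 CPM over the other tumors and 2.70 to 4.49 CPM in naïve brain.

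**Figure D4:**
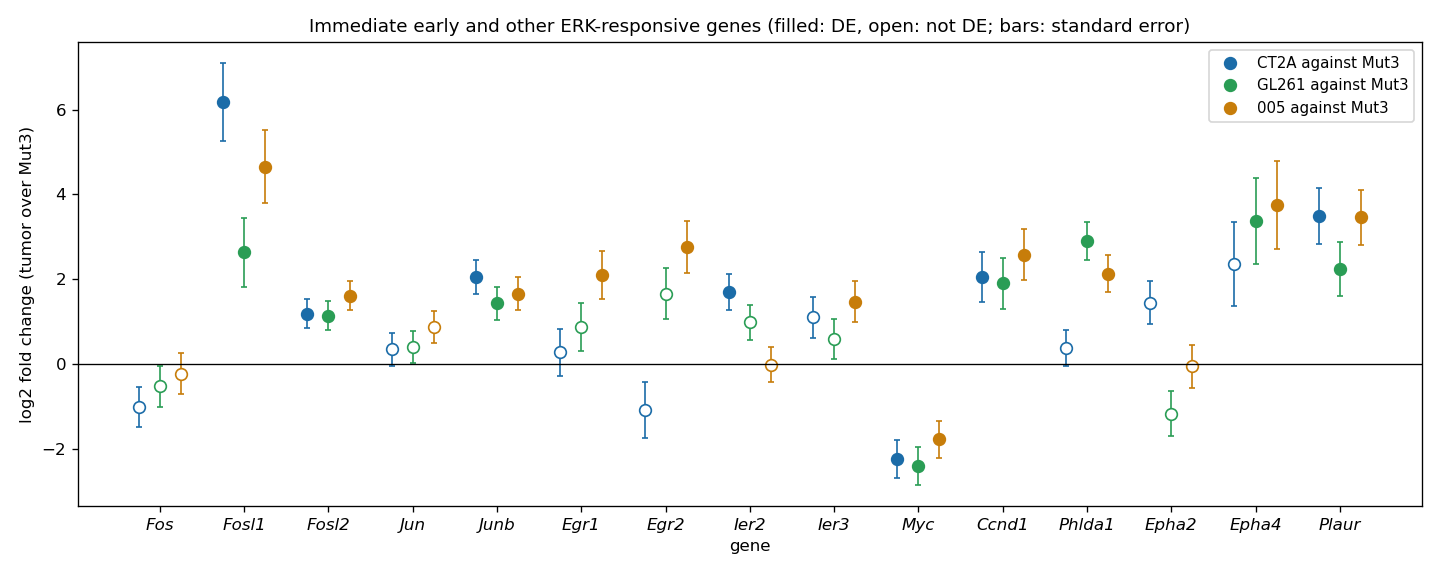
Log2 fold changes over Mut3 of the 15 tested immediate early and other ERK-responsive genes in CT2A, GL261 and 005 tumors, with standard errors and filled symbols for DE genes. Fosl1, Plaur, Junb, Ccnd1 and Fosl2 are filled and above 0 in all 3 tumors, and Myc is filled and below 0 in all 3.

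Against naïve brain, the same list split. Fosl1, Plaur, Ccnd1 and Myc were higher in CT2A, GL261 and 005, Myc by 2.93, 2.75 and 3.38 on the log2 scale. In Mut3, Myc was higher by 5.16 (adjusted p = 5.44e-05) and Fosl1, Plaur and Ccnd1 were not DE. Egr1, an immediate early factor that neurons induce with activity, fell in CT2A by 2.46, in GL261 by 1.86 and in Mut3 by 2.73. The Egr1 level in 005 ran from 20.7 to 148 CPM. Neuron marker sums were 220 to 1080 CPM in CT2A, 775 to 1804 CPM in GL261 and 45.4 to 137 CPM in Mut3, against 4035 to 6406 CPM in naïve brain, and the part of lost neurons in these values was not tested.

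Of 22 genes of the cascade itself, 2 were DE between CT2A and Mut3, 2 between GL261 and Mut3 and 4 between 005 and Mut3, beside 12.8%, 17.2% and 19.8% of all genes. Without 005 replicate 3, the 005 cascade count was 3, with 2 higher and 1 lower. Gab1, a docking adaptor, was lower in CT2A (-2.11) and in 005 (-1.97) than in Mut3. Against naïve brain, Shc1, an adaptor, and Nras were higher in all 4 tumors, Shc1 by 3.52 for CT2A, 2.22 for GL261, 2.61 for 005 and 2.12 for Mut3. Map2k1, the MEK1 gene, fell in all 4, by 1.76, 1.56, 1.30 and 2.60 on the log2 scale, the 005 call being kept in 2 of 15 leave-one-out fits. Of the 8 RAS GTPase-activating genes, Nf1 was higher than in naïve brain in GL261 (1.70), 005 (1.98) and Mut3 (1.05), and Rasal1 was lower in CT2A (-4.72) and Mut3 (-5.49). On log2(TPM + 1), the difference of a gene from naïve brain was shifted from its CPM value by a median of -0.68 for CT2A, -0.58 for GL261, -0.48 for 005 and -0.62 for Mut3, and the changes in this paragraph are those on the CPM scale.

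Listed receptors and ligands were read against Mut3 in the same way, beside 12.8%, 17.2% and 19.8% of all genes DE. Of 13 receptors, 3 were higher and 1 lower in CT2A than in Mut3, 4 and 0 in GL261 and 4 and 1 in 005, the last being 3 and 2 without 005 replicate 3. Met, the receptor for Hgf, was at 0.448 to 0.881 CPM in Mut3, against 12.3 to 36.2 CPM in CT2A, 18.4 to 42.3 CPM in GL261 and 5.13 to 46.4 CPM in 005. Its differences from Mut3, 5.11, 5.49 and 5.22 on the log2 scale, held without any 1 library. Of 13 tested ligands, 5 were higher and 2 lower in CT2A than in Mut3, 4 and 0 in GL261 and 9 and 1 in 005, and the 005 counts were 9 and 1 of 14 tested without its replicate 3. Areg, an EGFR ligand, was at 25.7 CPM at its highest in 005 and at or under 0.224 CPM in Mut3. Hgf was higher than in Mut3 in all 3 tumors. So was Fgf13, an FGF family gene counted in this list, which is not read here as receptor input. Bdnf and Fgf13 are also expressed by neurons, and 8 of 8 neuron markers were higher in GL261 than in Mut3. In 005 each of these markers was higher too, while in CT2A only Gad2 and Nefl were. Bdnf was higher than in Mut3 in CT2A (4.21) and 005 (4.17) and was not DE in GL261 (1.72, adjusted p = 0.0925). The part of neurons in these ligand levels was not tested.

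Markers of other cells differed between the same groups as the feedback genes. Microglia and macrophage markers, 8 genes, summed to 65.5 to 155 CPM in Mut3, 246 to 357 CPM in CT2A, 476 to 810 CPM in GL261, 453 to 1175 CPM in 005 and 153 to 205 CPM in naïve brain. T cell markers, 6 genes, summed to 6.94 to 20.8 CPM in Mut3, 28.6 to 47.8 CPM in CT2A, 66.9 to 122 CPM in GL261 and 62.5 to 350 CPM in 005. Oligodendrocyte precursor markers, 6 genes, had their highest sum in Mut3, at 318 to 688 CPM, against 33.8 to 200 CPM over the other tumors. Not every gene of the 6 was highest there. Sox10 had a mean of 53.1 CPM in GL261 against 10.5 CPM in Mut3, and Pdgfra 50.1 CPM in CT2A against 32.4 CPM in Mut3. Proliferation markers, 6 genes, summed to 760 to 1727 CPM in Mut3, 563 to 1229 CPM in CT2A and GL261 and 115 to 1058 CPM in 005. The part of myeloid, T and precursor cells in the feedback gene levels was not tested.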

How the data were processed

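RNA from tumor tissue and naïve brain was sequenced in 15 samples, 3 mice in each of 5 groups, assigned from the GEO labels. Per the labels, the authors aligned reads with STAR 2.4.2a to the GENCODE mouse genome, and the submitters' processing notes name mm10, Salmon and DESeq2 1.18.1. The authors deposited estimated counts and TPM per Ensembl gene for all samples, with 46679 genes. Estimated counts were rounded to whole numbers. Genes were named through GENCODE M21 and a symbol table (46201 IDs with a symbol), and 149 of 150 listed genes were found.

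Counts were filtered with filterByExpr, TMM-normalized and fitted over all 15 samples with edgeR 4.0.16 (glmQLFit, glmQLFTest, R 4.3.3), with p-values adjusted over 17481 genes. DE was called where the adjusted p was under 0.05 and the log2 fold change was 1 or more in size. CPM correlations used a prior count of 2. TPM has a per-length scale and was used to compare levels between genes and, as log2(TPM + 1) in limma 3.58.1, as an alternative. Other alternatives were DESeq2 1.42.0, library size scaling, other filters, a replicate block, fits of only the samples compared, and leaving out each library. The test script was checked on simulated data. Total counts per sample were 3105119 to 13130158, and intervals cover counting error only.

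All 10 feedback genes were named. Genes of other lists are those called, in order of fold change, or those needed for a member's role, and most alike genes were the 2 with the highest r per member. The members and lists were chosen with earlier results of these data known. How strand was treated in counting is not given in the sources used here. Some genotype details of the lines and the levels of the genes concerned are not reported here.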

Additional observations from a re-analysis of the deposited data

Results flagged for a closer look

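With all 15 libraries in the fit, Dusp6 was the 1 feedback gene that was higher than in naïve brain in some tumors and lower in another, with the difference between those tumors itself tested. Against Mut3, where it fell below naïve brain, its log2 fold change was 2.35 in CT2A, 3.19 in GL261 and 3.25 in 005 (edgeR adjusted p = 0.00228, 0.000524 and 0.000437). In 3 of 3 samples of each of these tumors Dusp6 was above all 3 Mut3 samples. On the TPM scale CT2A, at 4.24 ± 0.715, did not stand above naïve brain, at 4.14 ± 1.85 (SD, n = 3), while its distance from Mut3, at 0.948 ± 0.132, remained. The CT2A and Mut3 calls of Dusp6 against naïve brain were lost without single libraries (adjusted p up to 0.119 and 0.156). Its GL261 call against naïve brain was lost by limma on log2(TPM + 1). Without 005 replicate 3, Dusp5 was also higher than in naïve brain in 005, by a log2 fold change of 1.78 (adjusted p = 0.0400), and it was lower in Mut3. Groups of 3 samples were too small for a test of outlying samples.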

How the results depend on the processing

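Of 33 calls of a feedback gene in a comparison, 0 changed sign under any alternative, 18 held without any 1 library, and DESeq2 kept all 33. By limma on log2(TPM + 1), 15 of the 33 were kept, and with only the samples compared in the fit, 25. Apart from leaving out libraries, 13 of the 33 held under every alternative in which they could be tested. Where every sample had to hold 10 counts or more, 5 of the 10 genes could be tested, and calls against naïve brain numbered 1 for each of CT2A, GL261 and 005 and 2 for Mut3, and 8 over the pairs of tumors, with 3 genes different among the 5 groups. By limma on log2(TPM + 1), calls numbered 2, 1, 1 and 4 for CT2A, GL261, 005 and Mut3 against naïve brain, 1 of the 2 in CT2A being Spry2 called lower (-1.05), and 9 over the pairs, a scale on which low genes have compressed fold changes. With only the samples compared in the fit, 005 against naïve brain had 0. Leaving out 1 library at a time gave 2 to 4 calls for CT2A, 2 to 2 for GL261, 3 to 5 for 005 and 1 to 4 for Mut3 against naïve brain, 16 to 23 over the pairs, and 6 to 7 genes by the F test.

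With the replicate number as a block, calls numbered 3, 2, 3 and 3 against naïve brain, 19 over the pairs and 7 by the F test. Few samples with the same number deviated together. Their r was above 0.1 in 0, 1 and 0 of 10 pairs of samples for numbers 1, 2 and 3. The highest r was 0.26. With 3 mice per group, this check cannot exclude that the numbers pair the samples. Over all genes, calls ranged from 3956 to 7502 for CT2A against naïve brain (6858 as reported), 1988 to 5535 for GL261 (3913), 222 to 6535 for 005 (2217) and 3628 to 7221 for Mut3 (6601). Between tumors they ranged from 599 to 2353 for CT2A against GL261 (1358), 108 to 1777 for CT2A against 005 (719), 1132 to 3222 for CT2A against Mut3 (2231), 148 to 1073 for GL261 against 005 (458), 1163 to 4125 for GL261 against Mut3 (3015) and 925 to 4319 for 005 against Mut3 (3463). On log2(TPM + 1), 19%, 22.3%, 27.6% and 20% of the calls against naïve brain in CT2A, GL261, 005 and Mut3 were upward, against 48.4%, 65.3%, 91.7% and 47.5% as reported. Library size scaling shifted the differences of CT2A from the other groups by a median of -0.12 to -0.18. The cause of these shifts was not tested. Dusp4 and Etv4 rest on few counts.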
